A study of Mus musculus with 9 samples.

Results

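The 31 genes described here carry dietary fat from the gut lumen into lipoproteins: a lipase and its cofactor, fatty acid carriers, enzymes of triglyceride synthesis, apolipoproteins, sterol transporters, and genes that control these steps. They were found as the probe sets that the array annotation assigns to exactly 1 of the 31 symbols. This gave 54 of the 45101 probe sets on the array, and 51 of these 54 were bright enough to be tested, at least 1 for every gene. They were measured on 9 Affymetrix arrays of RNA from the distal small intestine of mice, where whole gut segments 10, 11, 12 and 14 of 16 equal ones were pooled, so that a sample holds epithelium, muscle, immune cells and vessels together. All mice carried the gut bacterium Bacteroides thetaiotaomicron for 10 days. Of 3 groups of 3 arrays, 1 was labelled Rag1, after the recombinase gene without which lymphocytes build no antibodies or T cell receptors, and 1 was wild type and is called B6 as in its titles. The BP group has the Rag1 source label and an added name that the labels do not spell out. The series title names IgA as the subject. Allele, sex, age and diet are not given in the sources used here. Whether the arrays of a group are different mice is not stated either, so p-values measure only the spread between these samples, which may be technical.

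Enterocytes take up fatty acids and monoacylglycerol from digested fat, rebuild triglyceride at the endoplasmic reticulum, and load it with the transfer protein Mttp onto apolipoprotein B. The resulting chylomicrons leave through the lymph, and lipoprotein lipase on capillaries of other tissues then frees their fatty acids. Much of this machinery is strongest in the proximal gut and weaker towards the ileum.

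RefSeq promoter windows of assembly GRCm38.p6, from 250 bases before to 50 bases after a gene's start, were found for 22 of the 31 genes. Lpl, the 1 gene that passed in a comparison below, had no window. Windows of 4 other genes described below are printed 5' to 3'. Plin2 (chr4:86670010-86670309, minus strand) and Creb3l3 (chr10:81092542-81092841, minus strand, 1 of 2 windows) had arrays of the BP and B6 groups above all Rag1 arrays. Fabp1 (chr6:71199629-71199928, plus strand) was the gene with one of the widest spreads among the Rag1 arrays. Abcg5 (chr17:84682962-84683261, minus strand) shares 209 bases of its window with Abcg8, its neighbour on the opposite strand. Capitals mark matches, on both strands, to AGGTCA, an element that nuclear receptors bind, in the first 3 windows. In Creb3l3 and Abcg5 they also mark AGATAA, one of the motifs of the GATA factors.
Plin2: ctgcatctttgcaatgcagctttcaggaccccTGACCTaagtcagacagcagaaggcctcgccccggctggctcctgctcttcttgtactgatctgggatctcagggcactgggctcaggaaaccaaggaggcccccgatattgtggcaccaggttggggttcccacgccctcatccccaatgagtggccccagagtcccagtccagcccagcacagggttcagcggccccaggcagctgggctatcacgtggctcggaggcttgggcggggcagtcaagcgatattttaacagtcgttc
Creb3l3: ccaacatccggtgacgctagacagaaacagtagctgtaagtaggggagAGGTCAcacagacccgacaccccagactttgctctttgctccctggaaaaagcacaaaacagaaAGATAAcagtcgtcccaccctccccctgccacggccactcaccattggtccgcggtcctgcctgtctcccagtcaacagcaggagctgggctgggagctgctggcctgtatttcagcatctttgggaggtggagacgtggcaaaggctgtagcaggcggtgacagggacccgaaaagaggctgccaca
Fabp1: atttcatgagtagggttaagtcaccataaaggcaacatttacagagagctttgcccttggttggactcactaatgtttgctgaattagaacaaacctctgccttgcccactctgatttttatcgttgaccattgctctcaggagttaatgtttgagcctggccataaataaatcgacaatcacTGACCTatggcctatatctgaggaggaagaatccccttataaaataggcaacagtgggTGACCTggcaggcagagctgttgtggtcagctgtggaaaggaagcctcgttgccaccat
Abcg5: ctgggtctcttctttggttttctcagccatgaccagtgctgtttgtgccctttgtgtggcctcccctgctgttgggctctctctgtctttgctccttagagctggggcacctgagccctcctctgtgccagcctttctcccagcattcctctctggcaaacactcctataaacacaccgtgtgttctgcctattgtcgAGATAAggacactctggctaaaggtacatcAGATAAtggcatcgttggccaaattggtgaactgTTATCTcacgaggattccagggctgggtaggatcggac
The letters AGGTCA stood in 6 of 25 windows of the lipid genes and in 16.3% of all 32851 windows of that length. Fabp1 held it 2 times, at bases -67 and -9 from its start. The letters AGATAA stood in 3 of 25 windows, against 11.2% of all, and Abcg5 held them 3 times. Of those 3 windows 2 are of Abcg5 and Abcg8, whose matches are the same sites in the bases they share, so the 3 windows are 2 separate stretches. TGATAA was in 3 of 25 windows and in 9.05% of all. TGACGT, the core bound by CREB family factors, was in 1 of 25, that of Mttp, and in 7.51% of all. The direct repeat DR1, which is the first element given again on the same strand after 1 base N, was in 0 of the 25 and in 0.0396% of all. A match describes these letters only.

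Some facts of the whole series bear on these genes. Between arrays of a group, the standard deviation (log2) of a typical probe set, taken as the median, was 0.21 in Rag1, 0.44 in BP and 0.23 in B6. On control probe sets of beta-actin the ratio of 3' to 5' signal, a measure that increases with broken RNA, was 14.2 and 20.2 on BP replicates 1 and 3 and at most 4.17 on each of the other 7 arrays. It was 1.53 to 1.77 in Rag1 and 3.25, 1.76 and 4.17 on B6 replicates 1, 2 and 3. B6 replicates 1 and 3 thus lay above all Rag1 arrays, so B6 minus Rag1 is not free of RNA quality either. The normalised intensity of Xist, a transcript of female cells, was 6.69 to 22.6 in Rag1, 41.6, 518 and 1948 in BP replicates 1, 2 and 3, and 1085 to 1510.0 in B6. Kdm5d, a transcript of the Y chromosome, read 63.2 to 76.4 in Rag1, 50.4, 4.80 and 9.91 in BP replicates 1, 2 and 3, and 3.27 to 13.0 in B6. Eif2s3y, another, read 42.4 to 95.0, then 19.2, 2.26 and 3.06, and 1.37 to 7.21. Sex and group can therefore not be told apart between B6 and Rag1. By these transcripts BP replicates 2 and 3 also differed from all Rag1 arrays, so BP minus Rag1 is not free of sex. BP replicate 1 differed in them from BP replicates 2 and 3 and from all B6 arrays, so B6 minus BP is not free of sex either. Its part was not tested. Enterocyte markers such as Vil1, an actin bundler of the brush border, were bright on all arrays (4795 to 6224), and so was Fabp6, a bile acid carrier typical of the ileum (2352 to 10458), so markers of small intestine and of its distal end were present. Of the other ileal markers, Slc51a read 1919 to 4406 and Slc51b 900 to 3450. Fgf15 was lower, at 105 to 444, and Slc10a2 was dim, at 9.71 to 90.7. Of 8 enterocyte markers tested, 0 were higher and 1 lower in BP than in Rag1, namely the adhesion protein Epcam by -0.47 (adjusted p = 0.0389), a call kept in 2 of 9 fits that each left out 1 array.

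Of the 31 genes, Lpl was the 1 that passed in any comparison, and it was lower on the BP arrays than on the Rag1 arrays. Lpl encodes lipoprotein lipase, which frees fatty acids from circulating lipoproteins. For each gene the brightest tested probe set is given unless another is named, as normalised intensity, and differences are log2 changes ± SE from limma with p adjusted over all 27022 tested probe sets (n = 3 arrays per group). Between BP and Rag1, 0 genes were higher and 1 lower at an adjusted p under 0.05, or 3.23% of the genes, against 3.80% of all probe sets (1.1% higher and 2.70% lower). Another 4 of the genes had an unadjusted p under 0.05, which made 5 of 31 or 16.1%, against 20.0% of all. By probe set, 4 of 51 passed, namely both of Lpl and a dimmer one each of Dgat2 and Abca1. Between B6 and Rag1, 0 of 31 genes and 0 of 51 probe sets passed, against 0.329% of all (0.259% higher and 0.0703% lower), and 8 genes had an unadjusted p under 0.05, or 25.8% against 5.56% of all probe sets. Between B6 and BP, 0 of 31 passed, against 0.633% (0.574% higher and 0.0592% lower), and 5 genes had an unadjusted p under 0.05, or 16.1% against 14.6%. The comparisons share arrays, since each group is in 2 of the 3.

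The median difference over the 31 genes was 0.029 for BP minus Rag1, with 16 positive and 15 negative, beside -0.045 over all tested probe sets. For B6 minus Rag1 it was 0.12, with 24 positive and 7 negative, beside -0.01. Without Rag1 replicate 3 the B6 median was 0.049, with 19 positive and 12 negative, and the number with an unadjusted p under 0.05 was 4 in place of 8, or 12.9% against 4.12% of all probe sets. That number was also 4 without B6 replicate 1, where the median was 0.15 with 25 positive. Over the fits that left out 1 array, the lowest median was the one without Rag1 replicate 3. For B6 minus BP the median was 0.17, with 20 positive and 11 negative, beside 0.042, and it was 0.021 without BP replicate 2. With each array centred on its median in place of quantile normalization, the 3 medians were -0.022, 0.27 and 0.33 beside -0.12, 0.002 and 0.13 over all probe sets. The sign for BP minus Rag1 thus changed with the scaling.

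**Figure D1:**
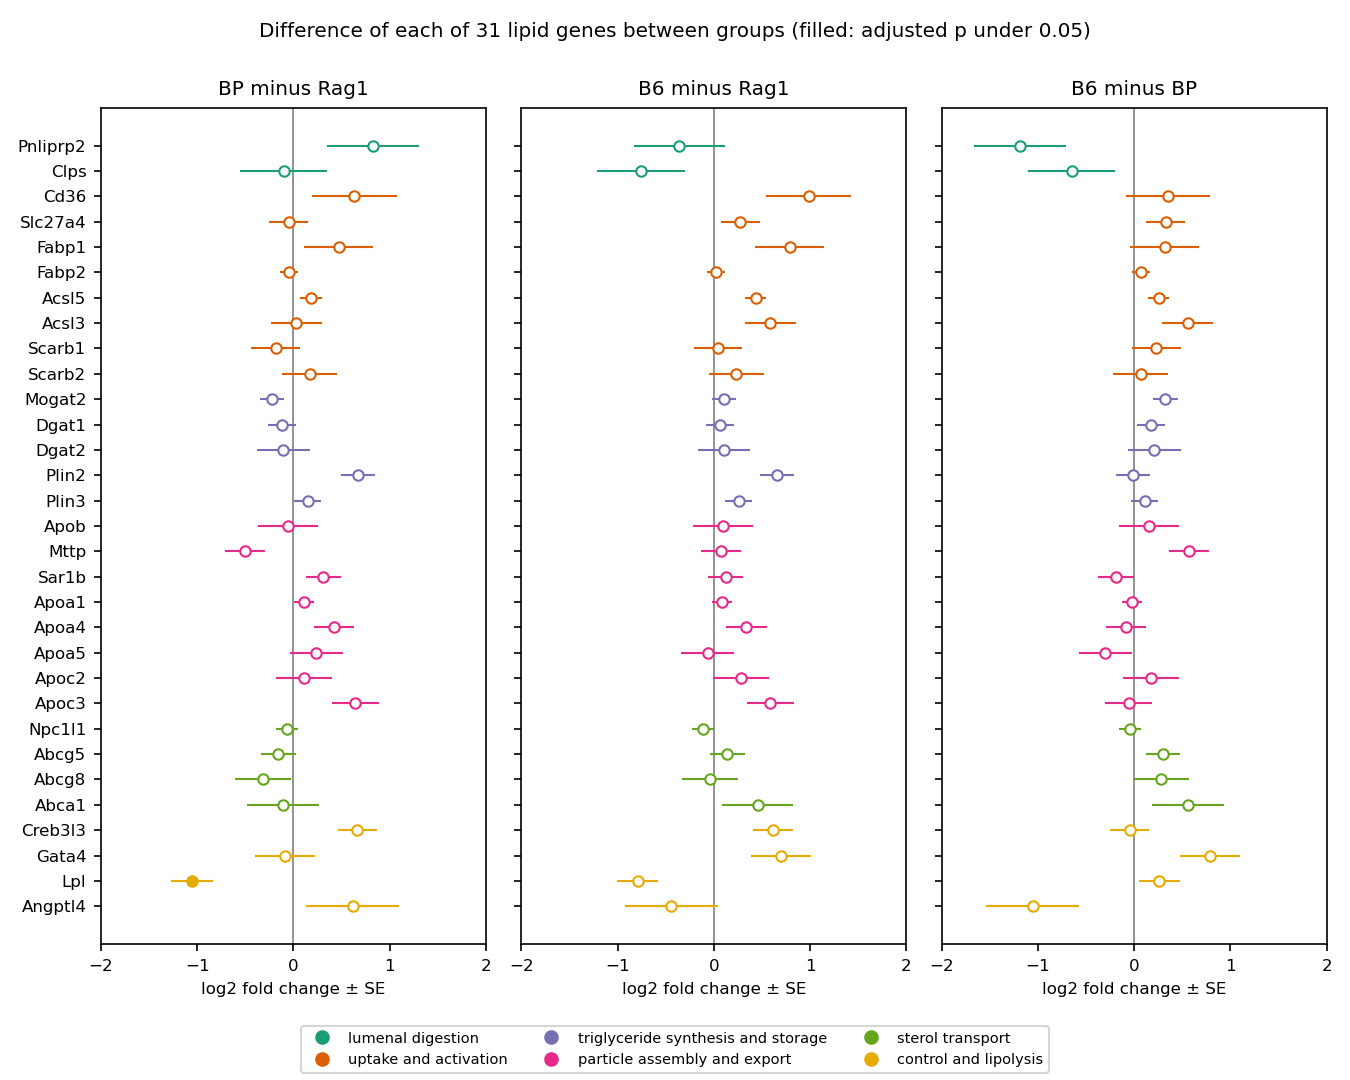
Log2 difference ± SE of each of the 31 genes in the 3 comparisons (n = 3 arrays per group), coloured by role, filled where the adjusted p is under 0.05. Lpl in BP minus Rag1 is the 1 filled point, and 24 of 31 points lie right of 0 for B6 minus Rag1.

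Among the genes of control and lipolysis, Lpl read 147, 159 and 171 on Rag1 replicates 1, 2 and 3, 75.9, 58.4 and 71.0 on the BP arrays and 73.4, 82.9 and 99.4 on the B6 arrays. All 3 BP arrays and all 3 B6 arrays lay below all 3 Rag1 arrays, and the BP and B6 arrays overlapped. The group means were 159 ± 12.0 for Rag1, 68.4 ± 9.02 for BP and 85.2 ± 13.1 for B6 (SD, n = 3). Lpl fell by 1.05 ± 0.21 in BP against Rag1 (adjusted p = 0.0264). For B6 against Rag1 the difference was -0.79 ± 0.21 (adjusted p = 0.348), and for B6 against BP 0.26 ± 0.21 (adjusted p = 0.637). The second Lpl probe set read 59.5, 86.2 and 72.7 on Rag1 replicates 1, 2 and 3, 7.84, 25.3 and 26.3 on the BP arrays and 53.5, 65.6 and 27.2 on the B6 arrays, and fell by 1.35 ± 0.32 in BP (adjusted p = 0.0432), while its B6 arrays overlapped with the Rag1 arrays. Its BP values lay near or below the mean of about 23.5 needed for testing, so this probe set is a weak second measure.

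The Lpl call was lost in several of the fits that left out 1 array. Its adjusted p for BP against Rag1 was 0.116, 0.109 and 0.101 without Rag1 replicates 1, 2 and 3, at differences of similar size. The difference was -1.08 (adjusted p = 0.063) without BP replicate 3, and -1.05 (adjusted p = 0.0833) when only BP and Rag1 arrays were fitted. Without BP replicates 1 and 3, which had the high actin ratios, it was -1.23 (adjusted p = 0.00496) with BP replicate 2 alone. The second probe set lost its call whichever single array was left out, except BP replicate 2, with -1.24 (adjusted p = 0.169) without Rag1 replicate 2 as the weakest. Lpl is made mainly by muscle, fat cells and macrophages rather than enterocytes, and fewer cells of a type and less RNA per cell cannot be told apart in these pooled tissues. Without BP replicate 2, the array furthest from the rest of its group for many genes, the Lpl difference was -0.96 (adjusted p = 0.00592). Here and below, a fit without BP replicate 2 rests for BP on replicates 1 and 3, which had the high actin ratios.

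Markers of those tissues were as follows. The summed intensity of 7 of 7 smooth muscle markers was 10505 to 12326 in Rag1, 9623 to 12546 in BP and 9941 to 11581 in B6. Of the 7, 0 were higher and 2 lower in BP than in Rag1, namely Myh11, the smooth muscle myosin, by -1.51 (adjusted p = 0.0134), and Des, the filament protein desmin, by -0.69 (adjusted p = 0.0485). By limma 3 of the 7 had an unadjusted p under 0.05. Acta2, a smooth muscle actin, was positive at 0.35 (adjusted p = 0.166), with all BP arrays above all Rag1 arrays. Cnn1 was positive too, at 0.28 (adjusted p = 0.58). Actg2, Tagln and Smtn were negative, at -0.32, -0.18 and -0.07, and did not pass. Leaving out 1 array in turn, Myh11 kept its call in 7 of 9 fits and Des in 1 of 9, with adjusted p of 0.0812 and 0.19 without Rag1 replicate 1. For adipocytes, 5 of 7 markers had a probe set and 4 were tested, 0 passed and 0 had an unadjusted p under 0.05 for BP minus Rag1, and the sum was 999.7 to 1217 in Rag1, 679 to 1094 in BP and 958 to 1155 in B6, with the hormone Adipoq at 90.1 to 179. For macrophages, 8 of 8 were tested and 0 passed. The 3 with an unadjusted p under 0.05 had positive differences, namely the complement subunits C1qb at 1.16 (adjusted p = 0.0538) and C1qa at 0.83 (adjusted p = 0.123), and the growth factor receptor Csf1r at 0.54 (adjusted p = 0.162). Marco was positive as well, at 0.42. Lyz2, Cd14, Cd68 and Adgre1 were negative, at -0.31, -0.28, -0.135 and -0.011, so the list did not move in 1 direction. The sum, most of it from the lysozyme Lyz2, was 7505 to 7928 in Rag1, 6788 to 7777 in BP and 4919 to 7507 in B6. For endothelium, on which Lpl acts, 7 of 7 were tested, 0 passed and 2 had an unadjusted p under 0.05, and the sum was 508 to 570.4 in Rag1, 544 to 785 in BP and 520.1 to 623 in B6. No marker in these lists was at 0, and Lep, a hormone of fat cells, was too dim to be tested. Their part in the Lpl result was not tested.

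**Figure D2:**
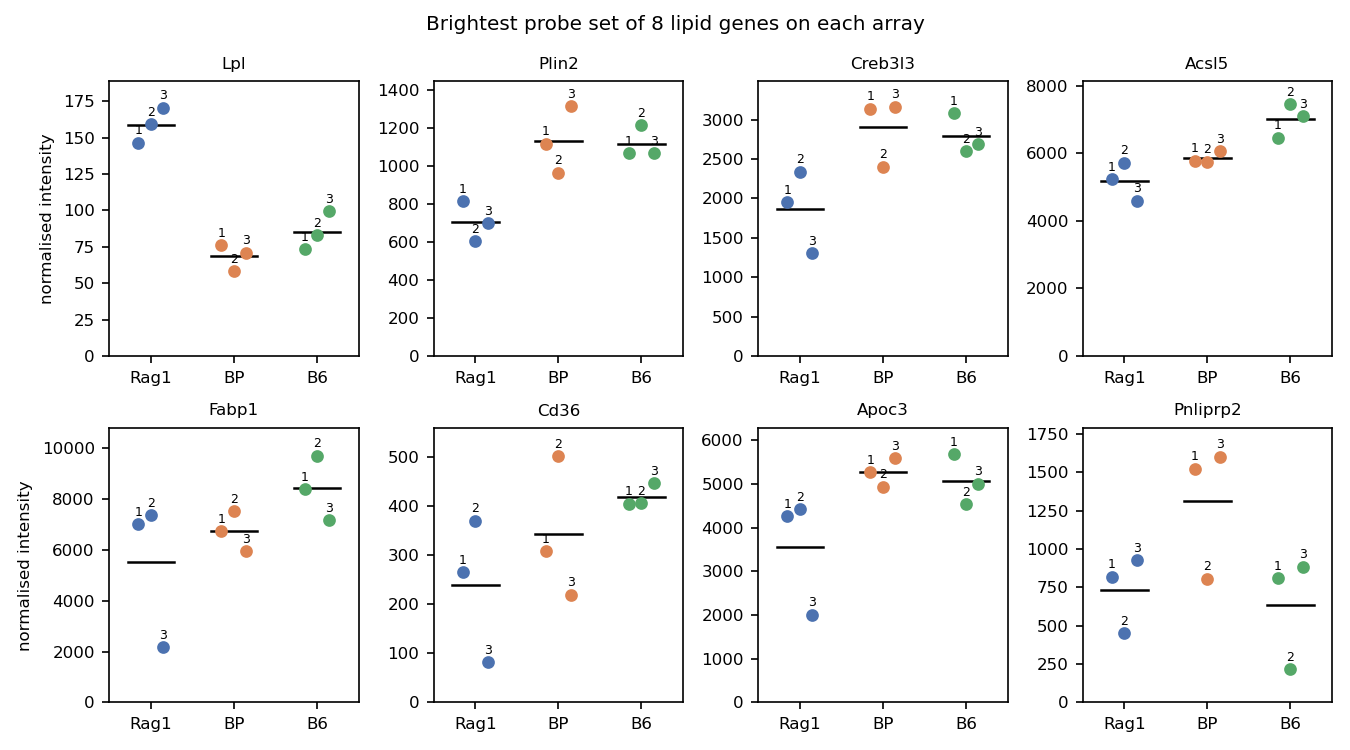
Normalised intensity (vertical axes, from 0) of the brightest probe set of 8 genes on each array; points carry the replicate number and lines are group means (n = 3). For Lpl all BP and B6 points lie below the Rag1 points, for Plin2 and Creb3l3 above them, and Rag1 replicate 3 is lowest of all arrays for Fabp1, Cd36 and Apoc3.

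Creb3l3 encodes a liver and gut transcription factor that controls triglyceride and apolipoprotein genes. It read 1951, 2339 and 1303 on Rag1 replicates 1, 2 and 3, 3141, 2403 and 3163 on the BP arrays and 3085, 2599 and 2690.3 on the B6 arrays. All BP and B6 arrays lay above all Rag1 arrays. The differences from Rag1 were 0.66 ± 0.20 (adjusted p = 0.0952) for BP and 0.61 ± 0.20 (adjusted p = 0.583) for B6, and neither passed. Without BP replicate 2 the BP difference was 0.79 (adjusted p = 0.0094), a call. It rests on BP replicates 1 and 3, which had the high actin ratios. Without Rag1 replicate 3 the BP difference was 0.43 (adjusted p = 0.259). Gata4, a transcription factor that keeps jejunal identity and is low in the ileum, read 249.8, 296 and 109 on Rag1 replicates 1, 2 and 3, 195, 158 and 221 on the BP arrays and 330.0, 392 and 300.1 on the B6 arrays. The B6 arrays lay above all others here, yet the differences were 0.70 ± 0.31 (adjusted p = 0.88) from Rag1 and 0.79 ± 0.31 (adjusted p = 0.273) from BP. The dimmer Gata4 probe set differed by -1.11 ± 0.35 (adjusted p = 0.0997) in BP from Rag1, with all BP arrays below the Rag1 arrays. Angptl4 encodes an inhibitor of lipoprotein lipase and read 388, 305 and 590.1 on Rag1 replicates 1, 2 and 3, 1384, 298 and 627 on the BP arrays and 425, 175 and 357 on the B6 arrays. It spread widely in the BP group, where replicate 1 was highest of all arrays, and its differences from Rag1 were 0.61 ± 0.48 (adjusted p = 0.537) for BP and -0.44 ± 0.48 (adjusted p = 0.999) for B6. Without BP replicate 2 it was 1.15 (adjusted p = 0.042) for BP minus Rag1 and -1.59 (adjusted p = 0.0155) for B6 minus BP, both calls. These too rest on BP replicates 1 and 3.

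The genes of triglyceride synthesis and storage gave 0 calls on their brightest probe sets. Plin2, the main coat protein of lipid droplets, read 814, 604 and 700.1 on Rag1 replicates 1, 2 and 3, 1116, 964 and 1314 on the BP arrays and 1066, 1215 and 1066 on the B6 arrays. Every BP and every B6 array lay above every Rag1 array. The differences were 0.67 ± 0.18 (adjusted p = 0.0602) for BP and 0.66 ± 0.18 (adjusted p = 0.344) for B6 against Rag1, and -0.01 ± 0.18 (adjusted p = 0.986) between B6 and BP. It passed for both without BP replicate 2, at 0.78 (adjusted p = 0.00291) and 0.66 (adjusted p = 0.0262), and for B6 when only B6 and Rag1 arrays were fitted (adjusted p = 0.0422). The first of these rests on BP replicates 1 and 3, which had the high actin ratios. Plin3, a further droplet coat protein, read 1395 to 1524 in Rag1, 1462 to 1831 in BP and 1727 to 1781 in B6. The B6 arrays were above the Rag1 arrays, with a difference of 0.26 ± 0.14 (adjusted p = 0.98).

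Mogat2, which joins a fatty acid to monoacylglycerol in enterocytes, read 2856, 3441 and 2838 on Rag1 replicates 1, 2 and 3, 2790.5, 2631 and 2396 on the BP arrays and 3208, 3424 and 3152 on the B6 arrays. The BP arrays lay below all others, with differences of -0.22 ± 0.13 (adjusted p = 0.37) for BP minus Rag1 and 0.32 ± 0.13 (adjusted p = 0.265) for B6 minus BP. Dgat1, which adds the last fatty acid to triglyceride, read 3609 to 5395 over all 9 arrays and differed by -0.12 ± 0.14 (adjusted p = 0.729) in BP and 0.06 ± 0.14 (adjusted p = 0.999) in B6 from Rag1. The dimmer Dgat1 probe set had the other sign in BP, at 1.09 ± 0.46 (adjusted p = 0.213), with overlapping arrays. Dgat2 catalyses the same step. Its brightest probe set read 1593, 2027 and 1593 on Rag1 replicates 1, 2 and 3, 2176, 919 and 2062 on the BP arrays and 1937, 1881 and 1765 on the B6 arrays and did not separate the groups, with -0.10 (adjusted p = 0.883) for BP minus Rag1. The dimmer one read 661, 585 and 464 on Rag1 replicates 1, 2 and 3, 160.2, 343 and 172 on the BP arrays and 415, 592 and 347 on the B6 arrays, and fell in BP by 1.34 ± 0.30 (adjusted p = 0.0338). Here BP replicates 1 and 3 were lowest, while on the brighter probe set BP replicate 2 was lowest, so the probe sets of Dgat2 differed in their pattern. The call on the dimmer one was lost without any of the Rag1 arrays, BP replicates 1 or 3, or B6 replicates 1 or 3, with the weakest at -1.23 (adjusted p = 0.155) without Rag1 replicate 1. Without BP replicates 1 and 3 it was -0.69 (adjusted p = 0.0983).

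**Figure D3:**
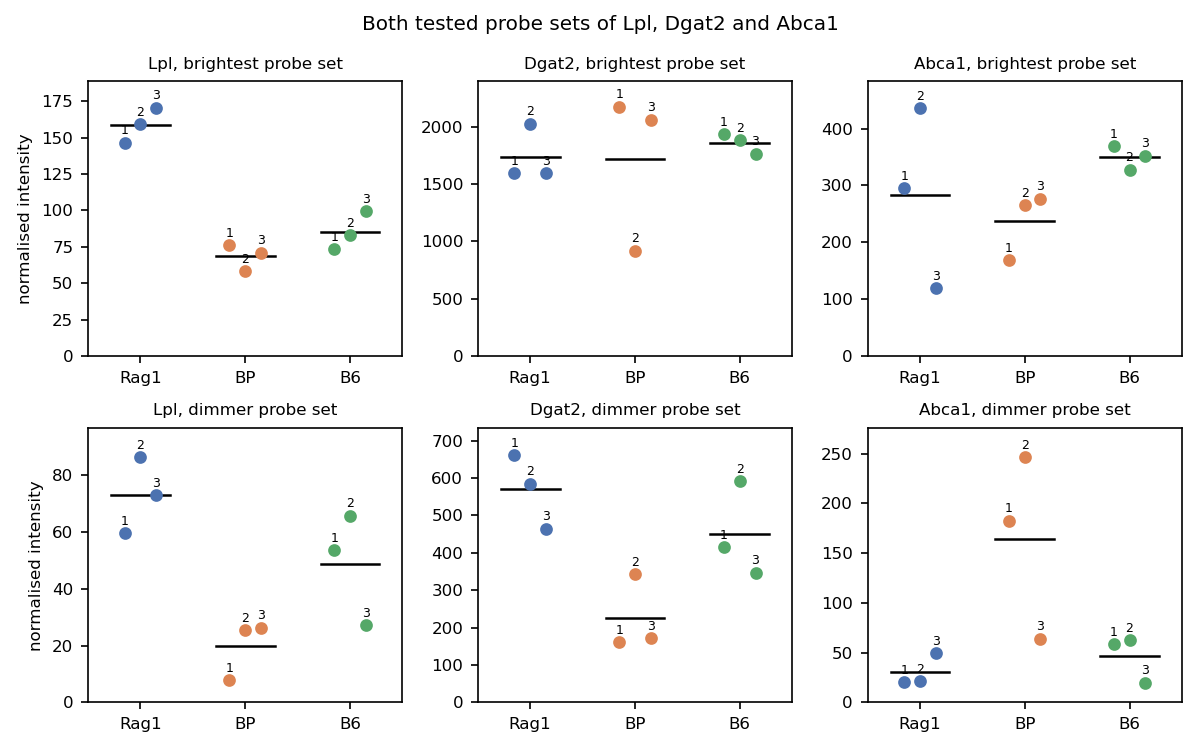
Normalised intensity (vertical axes, from 0) of the brighter (top) and dimmer (bottom) tested probe sets of Lpl, Dgat2 and Abca1 on each array; points carry the replicate number and lines are group means (n = 3). BP lies below Rag1 on both Lpl probe sets, and on the dimmer of Dgat2 alone; for Abca1 BP lies above Rag1 on the dimmer and overlaps on the brighter.

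Among the genes of uptake and fatty acid activation, 8 of 8 had a positive difference for B6 minus Rag1, against 48.6% of all probe sets. The median was 0.36 beside -0.01 over all probe sets. By tested probe set, 13 of 15 were positive. The signs of the smallest were not stable: Scarb1 was -0.002 with median centring and Fabp2 -0.065 with array weights. By limma 0 of the 8 passed and 3 had an unadjusted p under 0.05, against 5.56% of all probe sets. Acsl5, which couples long fatty acids to coenzyme A in the enterocyte, read 5232, 5722 and 4605 on Rag1 replicates 1, 2 and 3, 5783, 5759 and 6067 on the BP arrays and 6469, 7458 and 7099 on the B6 arrays. The order was Rag1, BP, B6 with no overlap between any of the groups, and the differences were 0.18 ± 0.11 (adjusted p = 0.398) for BP minus Rag1, 0.44 ± 0.11 (adjusted p = 0.28) for B6 minus Rag1 and 0.25 ± 0.11 (adjusted p = 0.32) for B6 minus BP. Without BP replicate 2, B6 minus Rag1 passed at 0.44 (adjusted p = 0.0441). Acsl3, of the same enzyme family, read 48.1 to 75.2 in Rag1, 45.9 to 88.4 in BP and 83.5 to 118 in B6, with 0.58 ± 0.26 (adjusted p = 0.888) for B6 minus Rag1.

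Fabp1, a fatty acid carrier in the cytosol of liver and gut, read 7010.3, 7346 and 2184 on Rag1 replicates 1, 2 and 3, 6739.8, 7516 and 5954 on the BP arrays and 8378, 9703 and 7155 on the B6 arrays. The B6 minus Rag1 difference was 0.79 ± 0.36 (adjusted p = 0.897), and it was 0.22 without Rag1 replicate 3, the lowest array of all. For BP minus Rag1 it was 0.47 ± 0.36 (adjusted p = 0.521). The dimmer Fabp1 probe set read 3801, 3794 and 976 on Rag1 replicates 1, 2 and 3, 4406, 7076 and 4035 on the BP arrays and 4158, 4755 and 4118 on the B6 arrays. All its BP and B6 arrays lay above the Rag1 arrays, with 1.05 ± 0.42 (adjusted p = 0.194) for BP and 0.84 ± 0.42 (adjusted p = 0.961) for B6 against Rag1. Cd36, a surface protein that binds fatty acids, read 264, 369.6 and 81.5 on Rag1 replicates 1, 2 and 3, 308, 501 and 219 on the BP arrays and 404, 405 and 445 on the B6 arrays. The same array was again lowest, and the difference was 0.98 ± 0.44 (adjusted p = 0.88) with it and 0.40 without it. Fabp2, the intestinal carrier, read 11419 to 13921 over all arrays, among the brightest probe sets. Its B6 minus Rag1 difference was 0.02 ± 0.10 (adjusted p = 0.999), and 0.27 with median centring and 0.14 on the values as deposited, so its small size depends on the quantile normalization. Slc27a4, a fatty acid transport protein of the enterocyte, read 4058 to 4861 in Rag1, 2815 to 5114 in BP and 5011 to 5442 in B6, with BP replicate 2 lowest. Its B6 arrays lay above the Rag1 arrays, with 0.28 (adjusted p = 0.999). Scarb1, a receptor for high density lipoprotein, read 42.9 to 89.2 and differed by -0.18 in BP and 0.04 in B6 from Rag1. Scarb2, its lysosomal relative, read 516 to 719.7 in Rag1, 405 to 961 in BP and 667 to 783 in B6 , and differed by 0.17 in BP and 0.23 in B6. The dimmer Scarb2 probe set had all BP and B6 arrays above the Rag1 arrays, with 0.69 (adjusted p = 0.096) for BP and 0.53 (adjusted p = 0.787) for B6.

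Apolipoproteins and the proteins that assemble and export particles gave 0 calls by limma in 8 genes, and 2 of them had an unadjusted p under 0.05 for BP minus Rag1 and 1 for B6 minus Rag1. Apoc3, which slows the clearance of triglyceride-rich particles, read 4263, 4422 and 2009 on Rag1 replicates 1, 2 and 3, 5277, 4938 and 5588 on the BP arrays and 5688, 4539 and 5006 on the B6 arrays. All BP and B6 arrays lay above the Rag1 arrays, and the differences were 0.65 ± 0.25 (adjusted p = 0.169) for BP and 0.59 ± 0.25 (adjusted p = 0.826) for B6. Without Rag1 replicate 3 they were 0.28 and 0.22. Apoa4, secreted on chylomicrons, read 6149, 7408 and 3583 on Rag1 replicates 1, 2 and 3, 7883, 7044 and 7099 on the BP arrays and 7346, 6498 and 6938 on the B6 arrays, again lowest on Rag1 replicate 3, with 0.42 ± 0.21 (adjusted p = 0.289) for BP and 0.34 ± 0.21 (adjusted p = 0.999) for B6 against Rag1. Apoc2, the cofactor of lipoprotein lipase, read 3343, 4122 and 1755 on Rag1 replicates 1, 2 and 3, 2683, 4448 and 2569.8 on the BP arrays and 3583, 3978 and 3071 on the B6 arrays . Its differences from Rag1 were 0.11 for BP and 0.28 for B6. Apoa1, the core protein of high density lipoprotein, read 10934 to 13921 and differed by 0.29 in B6 from Rag1 with median centring. After quantile normalization its 4 probe sets differed by 0.11 to 0.37 in BP and by 0.09 to 0.19 in B6 from Rag1. Apoa5, mainly a liver product, was dim, at 23.4 to 55.4. In the RefSeq gene order on chromosome 9, Apoa1, Apoc3, Apoa4 and Apoa5 follow each other directly.

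Mttp read 3997, 4659.6 and 2757 on Rag1 replicates 1, 2 and 3, 2934, 2536 and 2429 on the BP arrays and 3614, 5082 and 3259 on the B6 arrays. All B6 arrays lay above the BP arrays, with 0.57 ± 0.21 (adjusted p = 0.227) for B6 minus BP and -0.50 ± 0.21 (adjusted p = 0.208) for BP minus Rag1, and its dimmer probe set gave -0.01 (adjusted p = 0.984) for the latter. Apob, the scaffold of chylomicrons, read 2279.7, 6263 and 4618 on Rag1 replicates 1, 2 and 3, 4591, 3003 and 4271 on the BP arrays and 3386, 5011 and 4745 on the B6 arrays. Rag1 replicate 1 was the lowest array and Rag1 replicate 2 the highest, so this group alone spanned the whole range, and the differences from Rag1 were -0.06 for BP and 0.10 for B6. Sar1b, a GTPase needed to move chylomicrons out of the endoplasmic reticulum, read 1619 to 2022 in Rag1, 1977 to 3127 in BP and 1956 to 2120.4 in B6. BP replicate 2 was its highest array, and the difference was 0.31 ± 0.18 (adjusted p = 0.38) for BP minus Rag1.

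Of the 4 sterol transporters, 0 passed with limma on their brightest probe set, and 0 had an unadjusted p under 0.05 in any comparison. Npc1l1, which takes cholesterol up from the lumen, read 3642 to 4368 over all arrays and differed by -0.07 ± 0.12 (adjusted p = 0.815) in BP and -0.11 ± 0.12 (adjusted p = 0.999) in B6 from Rag1. Abcg5 and Abcg8 form together the pump that returns sterols to the lumen. Abcg5 read 1374, 1402 and 1042 on Rag1 replicates 1, 2 and 3, 1107, 1305 and 999 on the BP arrays and 1436, 1549 and 1214 on the B6 arrays. Abcg8 read 675, 979.5 and 534 on Rag1 replicates 1, 2 and 3, 690.1, 381 and 684 on the BP arrays and 622, 913 and 573 on the B6 arrays. The groups of both overlapped. Their differences were -0.16 and -0.32 for BP minus Rag1 and 0.14 and -0.04 for B6 minus Rag1. Although the shared promoter window shown above puts their starts side by side, their values followed each other weakly over the 9 arrays (Pearson r 0.34, a description).

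Abca1, which loads cholesterol onto apolipoprotein A1, gave opposite signs on its probe sets. The brighter read 296, 436 and 119 on Rag1 replicates 1, 2 and 3, 168, 265 and 277 on the BP arrays and 369, 328 and 353 on the B6 arrays, with -0.11 (adjusted p = 0.914) for BP minus Rag1. The dimmer read 20.1, 21.6 and 49.8 on Rag1 replicates 1, 2 and 3, 182, 246 and 63.9 on the BP arrays and 58.5, 62.8 and 19.7 on the B6 arrays, and rose in BP by 1.85 ± 0.46 (adjusted p = 0.0485), with all BP arrays above all Rag1 and B6 arrays. This call is at the threshold: it was lost without each single Rag1 or B6 array and without BP replicate 1, with 1.69 (adjusted p = 0.189) without Rag1 replicate 1 as the weakest, and at a pseudocount of 1, with no filter on dim probe sets, or on the values as deposited. Of the 16 genes with more than 1 tested probe set, 7 had both signs for BP minus Rag1, 5 for B6 minus Rag1 and 7 for B6 minus BP. Those for BP minus Rag1 were Clps, Cd36, Acsl3, Scarb1, Dgat1, Apob and Abca1. Dimmer probe sets gave 0.51 (adjusted p = 0.643) for Clps and -0.59 (adjusted p = 0.559) for Acsl3 there.

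The 2 genes of digestion in the lumen are Pnliprp2, a lipase related to pancreatic lipase, and Clps, colipase, which holds lipase on fat droplets. Pnliprp2 read 819, 451 and 928 on Rag1 replicates 1, 2 and 3, 1523, 807 and 1602 on the BP arrays and 809.5, 218 and 884 on the B6 arrays. Clps read 2020.0, 1733 and 2348 on Rag1 replicates 1, 2 and 3, 2442, 1181 and 2297 on the BP arrays and 1817, 471 and 1951 on the B6 arrays. On these probe sets replicate 2 was the lowest array of every group for both, and B6 replicate 2 was the lowest of all 9. The dimmer Pnliprp2 probe set differed, at 750.0, 1434 and 654 on BP replicates 1, 2 and 3, so there BP replicate 2 was highest of its group. All B6 arrays of that probe set lay below its BP arrays, with -1.47 ± 0.50 (adjusted p = 0.205). Angptl4 above was also lowest on replicate 2 in every group. The labels do not say what a replicate number shares between groups. In BP and B6, though not in Rag1, replicate 2 also had the lowest actin ratio of its group, at 2.43 and 1.76. The part of RNA quality in these values was not tested. On the brightest probe sets of Pnliprp2 and Clps the B6 minus BP differences were -1.19 ± 0.47 (adjusted p = 0.276) and -0.65 ± 0.46 (adjusted p = 0.561). For BP minus Rag1 they were 0.83 ± 0.47 (adjusted p = 0.369) and -0.10 ± 0.46 (adjusted p = 0.932). Without B6 replicate 2 the B6 minus BP differences were -0.56 and 0.00. Without BP replicate 2 the B6 minus BP difference of Pnliprp2 passed, at -1.50 (adjusted p = 0.0452). That call rests on BP replicates 1 and 3, which had the high actin ratios. Across the 9 arrays the genes had a Pearson r of 0.85, and of 0.55 without that B6 array. Of 12 markers of the exocrine pancreas, 10 had a probe set, 5 were tested, 0 passed in any comparison, and 1 had an unadjusted p under 0.05 for BP minus Rag1. Their sum was 318 to 396 in Rag1, 320.0 to 533 in BP and 353 to 649.7 in B6, and 353 on B6 replicate 2. Their part in the values of Pnliprp2 and Clps was not tested.

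Rag1 replicate 3 set the lower end of many of these genes, which was noticed in the values. It was the lowest of its group for 18 of 31 genes, against 32.1% of all tested probe sets. It lay more than 0.5 (log2) below the mean of the other 2 Rag1 arrays for 10 of 31, against 7.74% of all: Cd36, Fabp1, Abca1, Gata4, Apoc3, Apoc2, Apoa4, Creb3l3, Mttp and Abcg8. The 2 members above by more than that were Angptl4 and Pnliprp2. Markers of gut region differed on the same array. Lct, the lactase of the upper gut, read 3925, 4084 and 1385 on Rag1 replicates 1, 2 and 3. The ileal genes Fabp6 at 6167, 2352 and 10458, Slc10a2, the bile acid importer, at 14.0, 9.71 and 90.7, and Slc51a, a bile acid exporter subunit, at 3124, 2815 and 4406, were highest there. Of the other ileal markers, Slc51b, the partner subunit, was highest there too, at 2539.9, 2432 and 3450.3, and Fgf15, a hormone of the ileum, was not, at 105, 176 and 129. The summed ileal list of 5 markers was 11950.0, 7784 and 18533, and the proximal list of 6, which includes Gata4 itself, 8206, 8002 and 4453. In the proximal list Slc40a1, the iron exporter, went the other way and was highest on replicate 3, at 106, 93.5 and 273. The summed enterocyte list, which shares Lct with the proximal one, was 46047, 46263 and 42689. What part the position of the tissue along the gut had in the lipid genes was not tested.

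**Figure D4:**
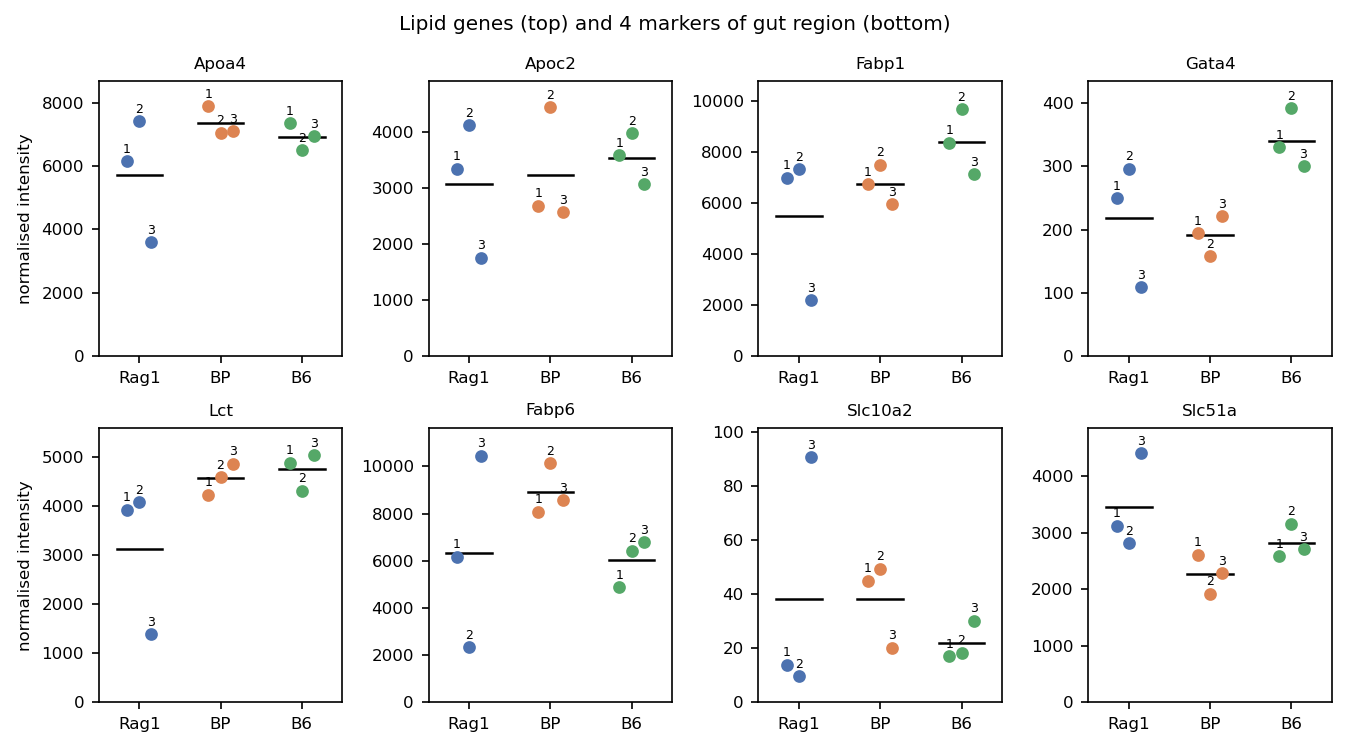
Normalised intensity (vertical axes, from 0) of Apoa4, Apoc2, Fabp1 and Gata4 (top) and of Lct, an upper gut marker, and Fabp6, Slc10a2 and Slc51a, ileal markers (bottom), on each array; points carry the replicate number and lines are group means (n = 3). Rag1 replicate 3 is the lowest array for the top genes and Lct and, within its group, the highest for the 3 ileal markers shown; Fgf15, an ileal marker not drawn, was highest on Rag1 replicate 2.

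Some of the closest likenesses between genes rest on this array. The Pearson r of Apoc3 with Apoa4 was 0.96 over 9 arrays and 0.61 without Rag1 replicate 3. For Fabp1 with Cd36 it was 0.93 and 0.64. For Apoc3 with Creb3l3 it was 0.95 and 0.90, so this pair stayed close. These are descriptions of arrays that also share group and RNA quality. Rag1 replicate 2 lay at the other end of its group: it was the highest for 18 of 31 genes, against 35.5% of all probe sets. It was more than 0.5 above the mean of the other 2 Rag1 arrays for 10, against 8.86% of all. That mean includes the low replicate 3, so this count is not separate from the one for replicate 3. BP replicate 2 was the lowest of its group for 20 of 31 genes, against 41.9% of all probe sets. It lay more than 0.5 below the mean of the other 2 BP arrays for 10, a share close to the 27.8% of all. Among them were Dgat2, Slc27a4, Angptl4 and Scarb2.

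**Figure D5:**
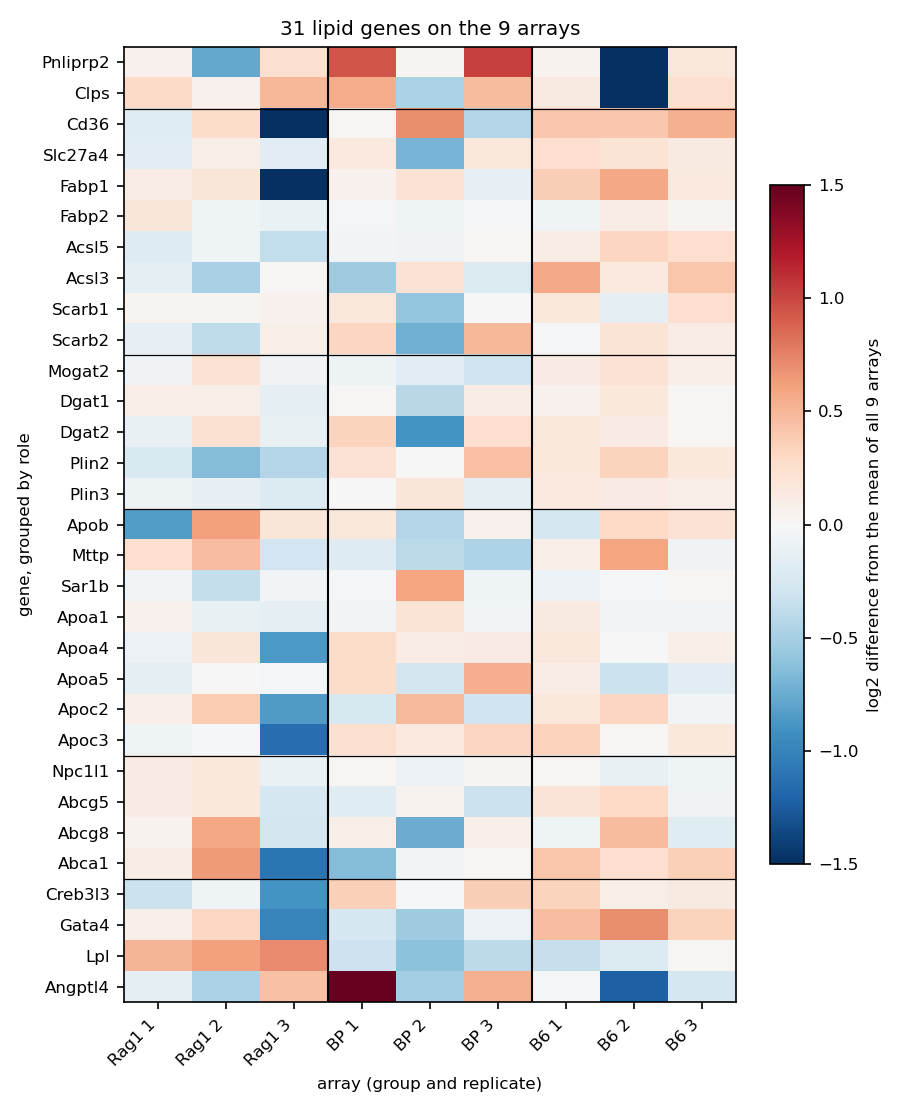
Log2 difference of each gene's brightest probe set from its mean over all 9 arrays (colour, limited to 1.5 either way), with genes in rows by role and arrays in columns by group. Rag1 replicate 3 is blue for Cd36, Fabp1, Apoa4, Apoc2, Apoc3, Abca1, Creb3l3 and Gata4, B6 replicate 2 for Pnliprp2 and Clps, and Lpl is deepest red on the 3 Rag1 arrays.

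Groups were also compared by whether their arrays overlapped. Of the 31 genes, 4 had all BP arrays above all Rag1 arrays and 2 all below, beside 9.33% and 14.2% of all tested probe sets. Those above were Acsl5, Plin2, Apoc3 and Creb3l3, and those below were Mogat2 and Lpl. The 6 together are to be read beside 23.6% of all. For B6 and Rag1, 9 were above and 1 below, beside 9.0% and 8.70%. Those above were Cd36, Slc27a4, Acsl5, Acsl3, Plin2, Plin3, Apoc3, Creb3l3 and Gata4, and Lpl was below. The 10 are to be read beside 17.7%. For B6 and BP, 5 were above and 0 below, beside 11.3% and 7.33%, or 18.6% together, namely Acsl5, Mogat2, Mttp, Abca1 and Gata4. By tested probe set, 7 of 51 were above and 2 below. Those below were the dimmer ones of Abca1 and Pnliprp2, so the probe sets of Abca1 went opposite ways.

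Of 81 further genes of lipid handling, 65 had a tested probe set. Between BP and Rag1, 2 were higher and 1 lower, or 4.62% against 3.80% of all probe sets, and 19 had an unadjusted p under 0.05, against 20.0% of all. Pltp, a phospholipid transfer protein of plasma, rose by 1.27 ± 0.27 (adjusted p = 0.0306), and Gpam, which starts glycerolipid synthesis, by 0.80 ± 0.20 (adjusted p = 0.0475). Surf4, a cargo receptor that helps lipoproteins leave the endoplasmic reticulum, fell by 0.94 ± 0.22 (adjusted p = 0.0412). A dimmer probe set of Hnf4a, a nuclear receptor that controls apolipoprotein genes, fell by 2.06 ± 0.34 (adjusted p = 0.0142), while its brightest differed by -0.24 ± 0.17 (adjusted p = 0.49). Leaving out each of the 9 arrays in turn, the call was kept 3 times for Pltp, 1 time for Gpam, 2 times for Surf4 and 6 times for Hnf4a. The weakest were 1.08 (adjusted p = 0.134) for Pltp without Rag1 replicate 2, and 0.76 (adjusted p = 0.193) for Gpam, -0.88 (adjusted p = 0.168) for Surf4 and -1.98 (adjusted p = 0.0889) for Hnf4a without Rag1 replicate 1. Between B6 and Rag1, 0 of 65 passed and 4 had an unadjusted p under 0.05, against 5.56% of all: Slc27a2, a fatty acid transport protein, at 0.93 ± 0.27 (adjusted p = 0.434), Cidec, a lipid droplet protein, at 0.70 ± 0.24 (adjusted p = 0.617), Sec23b, a coat protein of transport vesicles, at 0.43 ± 0.16 (adjusted p = 0.699), and Gpat3, an acyltransferase, at 0.47 ± 0.20 (adjusted p = 0.832). Between B6 and BP, 0 of 65 passed and 15 had an unadjusted p under 0.05, against 14.6% of all.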

How the data were processed

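The labels' protocols describe biotinylated cRNA from 20 µg of RNA. The authors deposited linear intensities, 1 per probe set and array, and the software and any scaling by them are not given in the sources used here. Array medians ran from 29.4 to 48.0, so log2(intensity + 16) was quantile-normalized over the 9 arrays; a normalised intensity is that value turned back to the linear scale. Fold changes on this scale understate those of dim genes. The 64 control probe sets and the lowest 40% by mean over all arrays (below about 23.5) were left out, which kept 27022. The test was limma 3.58.1 (R 4.3.3), with all 9 arrays in 1 fit, an intensity trend, two-sided, Benjamini-Hochberg adjustment over all tested probe sets, threshold 0.05. Probe sets were named by GEO's platform annotation, and 0 probe sets with several symbols included one of the 31. All 31 genes are named, with values on every array for those with the smallest p and for bright ones of each role. No list was tested as a whole. The genes, the lists and the alternatives were chosen with earlier results of these data known. The number of arrays limits the precision. Alternatives were other scalings, pseudocounts and filters, fits of the compared groups only, a replicate block, array weights, and leaving out arrays. For called genes outside the 31 they were added after the values were seen.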

Additional observations from a re-analysis of the deposited data

How the results depend on the processing

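In BP against Rag1, the count of 1 gene out of 31 became 2 when the lowest 60% of probe sets were left out (Lpl, Plin2), 0 when only those groups were fitted, 3 with array weights, 5 without BP replicates 1 and 3 together, and 4 when all 51 probe sets were counted. In B6 against Rag1, 0 became 1 when only those groups were fitted, 4 with array weights, and 1 without BP replicates 1 and 3. In B6 against BP, 0 became 5 without BP replicates 1 and 3. Leaving out 1 array gave 0 to 5, 0 to 2 and 0 to 2 for these comparisons in turn, the highest each time without BP replicate 2. That fit keeps BP replicates 1 and 3, which had the high actin ratios. Over all 27022 probe sets the counts of 1027, 89 and 171 became 183, 338 and 51 when only the compared groups were fitted, 4023, 1050 and 856 with array weights, and 5936, 336 and 5657 without BP replicates 1 and 3, where the lone BP array is assumed to vary like the other groups. In BP against Rag1, 298 higher and 729 lower became 158 and 1054 with median centring and 130 and 641 on the values as deposited. B6 against BP gave 499 with median centring and 108 on the values as deposited. Leaving out 1 array gave 18 to 5275 (lowest without Rag1 replicate 1, highest without BP replicate 2), 37 to 347 and 55 to 3029. With a replicate block the gene counts were 1, 0 and 0 and those over all probe sets 799, 74 and 142; the dimmer probe sets of Lpl (adjusted p = 0.0533) and Abca1 (0.0586) lost their calls. The numbers were not taken as pairs: same-numbered arrays correlated at -0.19 to 0.23 in their deviations, and 2 of 9 arrays correlated best with their own number. Over the brightest probe set of each gene and the 3 called dimmer ones, under all alternatives, 1793 values kept their call or, uncalled, moved by less than 1 SD, 69 moved further, 41 lost a call, 29 gained one and 0 called values reversed. Causes were not tested. Signals near the limit of brightness, as for Apoa5 and the dimmer probe sets of Abca1 and Lpl, limit what can be seen.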
